A study of Macaca mulatta with 12 samples.

Results

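The muscle miRNAs described here are the mature miRNAs of 8 pre-miRNAs: mml-mir-1-1, mml-mir-1-2, mml-mir-133a, mml-mir-133b, mml-mir-133c, mml-mir-206, mml-mir-208b and mml-mir-499. They were chosen by name from the 832 pre-miRNAs whose sequences could be read from the study's list. Small RNAs were sequenced in 12 profiles of 8 tissues of wild type, untreated rhesus macaques (Macaca mulatta) aged 36 months. There were 2 profiles each of muscle, kidney and the small and large intestine, and 1 each of occipital lobe, spinal cord, lung and liver. The samples came from 2 animals, and neither the labels nor the text used here tie a profile to an animal or say which muscle was taken. The profiles held 22118095 to 25579064 valid reads. Levels are given as RPTM, reads per 10000000 valid reads, so that 1 read stood for 0.391 to 0.452 RPTM.

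A miRNA is cut from a hairpin, the pre-miRNA, whose 5p and 3p arms can each give a mature miRNA, and its seed, bases 2 to 8, leads the pairing with target mRNAs. miR-1, miR-133, miR-206, miR-208b and miR-499 are together called myomiRs. miR-1 and miR-133 are made in skeletal and heart muscle and act in muscle growth and differentiation. miR-206 is a relative of miR-1 that is made in skeletal muscle. miR-208b and miR-499 lie in introns of the myosin heavy chain genes MYH7 and MYH7B and are tied to slow muscle fibres, while miR-208a is the heart form in MYH6.

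In the RefSeq table of the macaque assembly T2T-MMU8v2.0, used only for names and neighbours, MIR208B lay in MYH7, MIR499 in MYH7B and MIR208A in MYH6. The gene nearest to MIR1-1 among miRNA genes was MIR133C, that nearest to MIR1-2 was MIR133A, and MIR206 and MIR133B were nearest to each other. MIR1-2 and MIR133A lay in MIB1.

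The mature sequences below carry the counts of these miRNAs, and they are shown because the miR-133 3p sequences are nearly the same, as are those of miR-1 and miR-206 and those of miR-208a and miR-208b. The seed is in capitals.
miR-1-3p: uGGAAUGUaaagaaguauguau
miR-206-3p: uGGAAUGUaaggaagugugugg
miR-133a-3p: uUGGUCCCcuucaaccagcug
miR-133c-3p: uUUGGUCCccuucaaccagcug
miR-133b-3p: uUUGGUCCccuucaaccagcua
miR-133c-5p: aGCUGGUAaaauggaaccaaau
miR-208b-3p: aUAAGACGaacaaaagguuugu
miR-208a-3p: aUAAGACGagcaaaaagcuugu
miR-499-5p: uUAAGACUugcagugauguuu
miR-1-3p and miR-206-3p share the seed GGAAUGU. miR-133b-3p and miR-133c-3p share the seed UUGGUCC, and that of miR-133a-3p, UGGUCCC, is the same stretch read 1 base later. The seed of miR-208b-3p and miR-208a-3p is UAAGACG, and that of miR-499-5p is UAAGACU.

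The study's list gives the same 3p sequence for mml-mir-1-1 and mml-mir-1-2, so that their reads were counted as miR-1-3p. Their hairpins, with the annotated arms in capitals, differ beside the 3p arm.
mml-mir-1-1: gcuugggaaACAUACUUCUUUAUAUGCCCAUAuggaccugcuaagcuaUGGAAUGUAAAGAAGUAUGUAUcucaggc
mml-mir-1-2: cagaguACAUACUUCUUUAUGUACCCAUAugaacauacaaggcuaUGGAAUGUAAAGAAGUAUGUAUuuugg
mml-mir-133a: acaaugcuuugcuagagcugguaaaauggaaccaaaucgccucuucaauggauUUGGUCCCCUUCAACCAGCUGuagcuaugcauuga
mml-mir-133c: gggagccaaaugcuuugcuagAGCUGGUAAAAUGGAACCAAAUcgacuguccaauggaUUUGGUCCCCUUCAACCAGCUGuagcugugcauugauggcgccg
mml-mir-133a and mml-mir-133c hold the same letters at both arms, and differ in the loop and beyond the ends. The list starts the 3p miRNA of mml-mir-133a 1 base later than that of mml-mir-133c and annotates no 5p miRNA on mml-mir-133a. Reads were counted for a mature miRNA when they matched its pre-miRNA exactly and both ends lay within 2 bases of the annotated ends. Each read went to the mature sequence with the nearest ends, and where several were equally near it was counted for each. The counts of miR-133a-3p and miR-133c-3p are therefore counts of reads with a later and an earlier start, and not of the transcripts of the different genes.

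Of the 13 distinct mature sequences annotated on the 8 pre-miRNAs, 8 passed the study's filter on low values, which asks for 5 RPTM or more on average and a standard deviation of 1 or more. All 8 were higher in muscle, with edgeR's quasi-likelihood test and Benjamini-Hochberg adjusted p-values under 0.05. Over all 370 miRNAs tested, 84 (22.7%) were higher in muscle. Because a low miRNA that is found only in muscle passes the filter through muscle, the count over those that passed is a description. So are the muscle p-values of miR-206-3p, miR-208b-3p and miR-133c-5p, whose medians outside muscle were 0, 1.645 and 0.6369 RPTM. The miR-133 sequences among the 8 also share reads or hairpins and are not separate. Both muscle profiles lay above the other 10 profiles for each of the 8, which held for 32 (8.65%) of the 370.

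miR-133, which acts in the growth of muscle precursor cells, had the most reads. How its level stands to those of miR-1-3p and miR-206-3p cannot be told, because of the adapter. miR-133c-3p had 79804 RPTM in muscle 1 and 92137 RPTM in muscle 2 (mean 85971, SD 8721, n = 2), and miR-133a-3p had 49899 and 52554 RPTM (mean 51227, SD 1877). The other profiles had 32.27 to 674.6 RPTM of the former and 14.52 to 236.4 RPTM of the latter. Among all mature miRNAs of a profile, miR-133c-3p ranked 12 in muscle 1 and 13 in muscle 2. The 3p miRNAs of the 3 miR-133 hairpins together made up 97% and 95.3% of the reads counted for the muscle miRNAs in the muscle profiles. All the muscle miRNAs together took 2.33% and 2.61% of the reads assigned to mature miRNAs there. Elsewhere this share was 0.00142% to 0.0156%. Reads equally near to miR-133b-3p and miR-133c-3p were counted for both in these shares. The shares also hold miR-1-3p and miR-206-3p, whose counts cannot be set against those of the others, for a reason in the adapter given further on. Between muscle and the mean of the other 6 groups, the log2 fold change was 9.20 ± 0.56 (fold change ± standard error, here and below) for miR-133c-3p, with an edgeR adjusted p of 8.9e-08, and 9.73 ± 0.45 for miR-133a-3p, with an edgeR adjusted p of 7.2e-09. Both were far larger than the spread between the muscle profiles.

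miR-133b-3p, which differs from miR-133c-3p in its last base, was at 3504 RPTM in muscle 1, 6124 RPTM in muscle 2 and 1.21 to 32.1 RPTM elsewhere. Its log2 fold change was 9.50 ± 0.37 (edgeR adjusted p = 2.1e-09). Most of its reads ended before the last base and matched all 3 miR-133 hairpins equally. Such reads were as near to miR-133c-3p and were counted for both. Only 1856 of 8399 reads in muscle 1 (22.1%) and 1821 of 14054 reads in muscle 2 (13%) matched mml-mir-133b and no other pre-miRNA. With these reads alone, its level was 774.3 and 793.5 RPTM, so that the difference between the muscle profiles, 0.81 on the log2 scale with all reads, was 0.04. In the other profiles, such reads were most frequent in large intestine 1, with 49 reads, and at most 17 were found in any other of them.

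miR-208b-3p, the myosin-gene miRNA of MYH7, was at 2113 RPTM in muscle 1 and 5326 RPTM in muscle 2 (mean 3720, SD 2272, n = 2). Its highest level elsewhere was 7.823 RPTM, in occipital lobe. The log2 fold change, 11.53 ± 0.57 (edgeR adjusted p = 1.2e-08), was the largest among the muscle miRNAs in this fit. It rests in part on lung, with 0 reads, and liver, with 2 reads, and so depends on the prior count of the fit. Over 20 alternatives it ran from 10.05 to 12.02, and that of miR-206-3p from 9.45 to 10.81, so that the ranges overlap. The heart relative of miR-208b-3p, miR-208a-3p, was nearly missing, with 2 reads in each muscle profile and 0 reads in the other 10 profiles.

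miR-499-5p, the miRNA of MYH7B, had 535.7 RPTM in muscle 1 and 1061 RPTM in muscle 2 (mean 798.1, SD 371.2, n = 2). It was the member with the most reads in the neural profiles relative to muscle, with 57.31 RPTM in spinal cord (7.18% of the muscle mean) and 29.99 RPTM in occipital lobe. The other 8 profiles lay between 1.687 RPTM in small intestine 2 and 10.16 RPTM in kidney 1. The log2 fold change between muscle and the other groups was 6.77 ± 0.44 (edgeR adjusted p = 1.9e-07), the smallest of the 8. miR-208b-3p and miR-499-5p were both higher in muscle 2, by 1.33 and 0.98 on the log2 scale.

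Levels of miR-1-3p, a miRNA of striated muscle, were 939.5 RPTM in muscle 1 and 526.8 RPTM in muscle 2 (mean 733.2, SD 291.8, n = 2), from 2252 and 1209 reads. Its difference between the profiles, muscle 2 minus muscle 1, was -0.83 on the log2 scale. Among the 8 miRNAs only miR-1-3p and miR-133c-5p (-0.20) were lower in muscle 2. The log2 fold change of miR-1-3p was 7.93 ± 0.57 (edgeR adjusted p = 3.5e-07). miR-206-3p, its relative, had 117.2 and 137.3 RPTM in the muscle profiles (mean 127.2, SD 14.16, n = 2). Outside muscle it was found in occipital lobe (3 reads), small intestine 1 (3 reads) and spinal cord (1 read), and the other 7 profiles had 0 reads, which allows a level of up to 3 reads per profile. Its log2 fold change, 10.05 ± 0.79 (edgeR adjusted p = 3.7e-06), rests on groups at 0 and depends on the prior count of the fit. Intervals and such limits cover counting error only, since reads are not independent molecules.

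**Figure D1:**
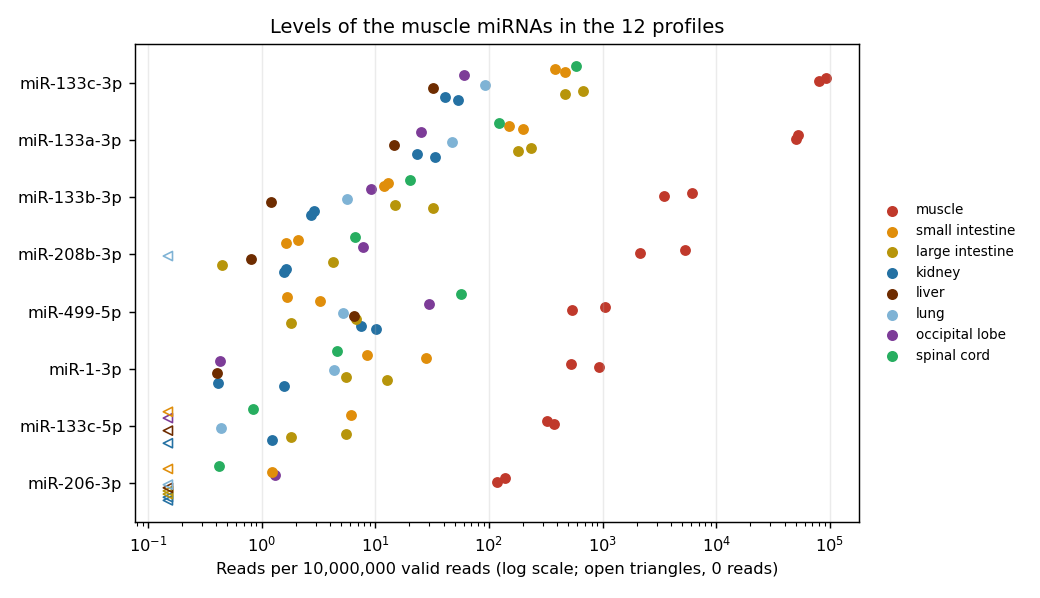
Levels of the 8 muscle miRNAs that passed the filter, in RPTM on a log axis, with a point for each of the 12 profiles coloured by tissue and open triangles for 0 reads. For every miRNA the 2 muscle profiles lie above the other 10, by the widest gap for miR-208b-3p and the narrowest for miR-499-5p.

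The lowest muscle profile exceeded the highest other profile by a factor of 270 for miR-208b-3p, 211 for miR-133a-3p, 118 for miR-133c-3p, 109 for miR-133b-3p, 89.9 for miR-206-3p, 53 for miR-133c-5p, 18.7 for miR-1-3p and 9.35 for miR-499-5p. In muscle, the order of mean levels ran from miR-133c-3p over miR-133a-3p, miR-133b-3p, miR-208b-3p, miR-499-5p, miR-1-3p and miR-133c-5p to miR-206-3p. The ranges of the 2 profiles overlapped for the neighbours miR-133b-3p and miR-208b-3p, and for miR-499-5p and miR-1-3p. The places of miR-1-3p and miR-206-3p in this order are not to be relied on, for a reason in the adapter that is given further on. The place of miR-133b-3p and its factor of 109 rest mostly on reads shared with miR-133c-3p. Its own reads gave 774.3 and 793.5 RPTM in muscle 1 and muscle 2, below miR-208b-3p, and 22.15 RPTM in large intestine 1. For the 147 miRNAs with at least 100 RPTM in both muscle profiles, the difference muscle 2 minus muscle 1 had a median of 0.07 on the log2 scale, with -0.84 and 1.49 as the 5th and 95th percentiles. The differences of the members all lay within these percentiles.

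Besides the myomiRs, marker miRNAs of other cell types were summed in the muscle profiles. The 2 erythroid miRNAs miR-144-3p and miR-451-5p together had 312.9 RPTM in muscle 1 and 5207 RPTM in muscle 2, against 49.28 to 1604 RPTM in the other profiles. Endothelial miR-126-3p had 1769 and 2049 RPTM, and 9051 RPTM in lung. Leukocyte miRNAs (miR-142, miR-150 and miR-223) had 2013 and 2901 RPTM, within the 470.7 to 10428 RPTM of the other profiles. This sum holds members that differ, since edgeR called miR-150-5p higher in muscle and miR-142-3p and miR-223-3p lower. Neuronal miR-9 and miR-124a had 297.9 and 214.4 RPTM against 395069 RPTM in occipital lobe. Epithelial miRNAs (14 sequences of miR-141, miR-200, miR-429, miR-192, miR-194 and miR-215) were lowest in muscle, with 6904 and 7770 RPTM against 8299 to 2075861 RPTM elsewhere. Hepatocyte miR-122a had 3.755 and 1.307 RPTM in muscle and oligodendrocyte miR-219 had 6.675 and 6.1 RPTM. Whether red blood cell RNA had a part in the differences between muscle 1 and muscle 2 was not tested. In such bulk samples, fewer cells of a type and less RNA per cell cannot be told apart.

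The opposite arms of the hairpins gave few reads. On mml-mir-499 the 5p arm held 1374 of 1398 exactly matching reads in muscle 1 (98.3%, 95% Wilson interval 97.5% to 98.8%) and the same 98.3% in muscle 2. The 3p arm held nearly all reads of the other hairpins. miR-133c-5p, whose sequence is also that of mml-mir-133a, had 375.1 and 325.5 RPTM in muscle, at most 6.138 RPTM elsewhere and 0 reads in 4 of the other 10 profiles. Its log2 fold change was 8.99 ± 0.86 (edgeR adjusted p = 4.7e-06). With 0 reads in liver and 1 in lung, this value also depends on the prior count of the fit. Over 20 alternatives it ran from 6.75 to 10.12. On mml-mir-133c, 982 of the reads in muscle 1 lay on the 5p arm, which is 0.314% (0.295% to 0.335%), and 0.278% of those in muscle 2. miR-133b-5p had 5 and 15 reads in muscle and 0 elsewhere. miR-208b-5p had 2 reads, in muscle 2, against 17289 of miR-208b-3p in both muscle profiles. On mml-mir-206, 0 of 631 reads in muscle lay on the unannotated 5p arm, for which the Wilson interval reaches 0.605%. For mml-mir-1-1 and mml-mir-1-2, 2 reads and 1 read were found on the 5p arms. miR-499-3p had 7.092 and 9.15 RPTM in muscle, and 67 reads on its arm with any ends.

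Reads that tell the copies apart were rare. In the muscle profiles, 516 exact 3p reads matched mml-mir-1-2 alone and 44 matched mml-mir-1-1 alone, by the bases that follow the mature sequence. A base added to the 3p end would be counted the same way, so that these reads do not give the shares of the copies. For mml-mir-133a and mml-mir-133c, 3 and 10 reads in muscle matched that hairpin alone, beside 643900 reads on the 3p arm of mml-mir-133c, and the miR-133 reads could not be split between these hairpins.

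Abundant reads of the muscle profiles are printed next, since they show where the ends of the miRNAs lay. Bases that the hairpin does not hold are in capitals.
miR-1-3p, 2697 reads: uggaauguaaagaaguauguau
miR-1-3p, 588 reads: uggaauguaaagaaguauguaC
miR-133a/c-3p, 248070 reads: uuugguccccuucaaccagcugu
miR-133a/c-3p, 190274 reads: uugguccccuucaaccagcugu
miR-133a/c-3p, 132811 reads: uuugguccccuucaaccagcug
miR-133a/c-3p, 56677 reads: uuugguccccuucaaccagcugC
miR-133a, b or c, 16363 reads: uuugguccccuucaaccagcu
miR-133b-3p alone, 1854 reads: uuugguccccuucaaccagcuac
miR-206-3p, 507 reads: uggaauguaaggaagugugugg
miR-208b-3p, 12060 reads: auaagacgaacaaaagguuug
miR-499-5p, 2559 reads: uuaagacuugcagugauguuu
miR-499-5p, 1073 reads: uuaagacuugUagugauguuu
The most abundant reads of miR-1-3p, miR-206-3p and miR-499-5p were the annotated sequences. That of miR-133a/c-3p was 1 base longer than the annotated miR-133c-3p, which was itself the read with 132811 counts. That of miR-208b-3p was 1 base shorter than annotated. Among the reads counted for miR-133b-3p, the most abundant was the shared read that ends 1 base short, while the most abundant read that matches mml-mir-133b alone was 1 base longer than annotated.

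The shares that follow also use reads in which 1 base was changed, the last 1 or 2 bases were untemplated, or both. The start of miR-499-5p was nearly fixed, with 99.4% and 99.6% of reads at the annotated first base in muscle 1 and muscle 2. miR-208b-3p began there in 91.2% and 93.9% of its reads, and 1 base earlier in 6.99% and 4.91%. For miR-206-3p, 90.8% (87.5% to 93.2%) and 96.1% (93.8% to 97.5%) began at the annotated base, and the intervals do not overlap. The starts of miR-1-3p varied more, with 83.2% and 79% at the annotated base, 5.39% and 7.69% at 2 bases later and 5.18% and 5.7% at 4 bases later. For comparison, the median share of reads at the annotated start was 99% over the 114 miRNAs with at least 1000 reads in muscle 1. For miR-1-3p and miR-206-3p the reads at the annotated start begin with the letters of the 3' adapter and those that start later do not, and the part of adapter removal in these shares was not tested.

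miR-133a/c-3p used 2 starts. Counted from the start annotated for mml-mir-133c, 58% of 414896 reads in muscle 1 began at that base and 41.5% at the next, and in muscle 2 these were 59.6% and 39.9%. The reads that match mml-mir-133b alone had a similar pattern, with 58.5% and 62.7% at the first of these bases. Outside muscle the share at this base was lowest in kidney 2 (59%) and kidney 1 (59.8%), whose intervals hold the values of both muscle profiles, the 4 intestine profiles ranged from 68.6% to 72.2%, and spinal cord was highest, with 80.2% of 1966 reads (78.4% to 81.9%). The interval of spinal cord overlaps with that of no other profile. Since the later start moves the seed by 1 base, from UUGGUCC to UGGUCCC, the profiles differed in the share of reads with each seed. The authors multiplexed the libraries, and whether reads of the muscle libraries were among those of the other profiles was not tested.

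At the 3' end, 59.4% and 59.9% of the miR-133a/c-3p reads in muscle 1 and muscle 2 reached 1 base beyond the annotated end, and 37.1% and 37.7% ended at it. miR-208b-3p ended 1 base short in 69.2% and 78.2% of the reads. The own reads of miR-133b-3p reached 1 base further than annotated in 80.7% and 73.5%. By contrast, miR-206-3p, miR-1-3p and miR-499-5p ended mostly at the annotated base, with 74.8% and 81.3%, 65.7% and 56.8%, and 64.8% and 65.6%.

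**Figure D2:**
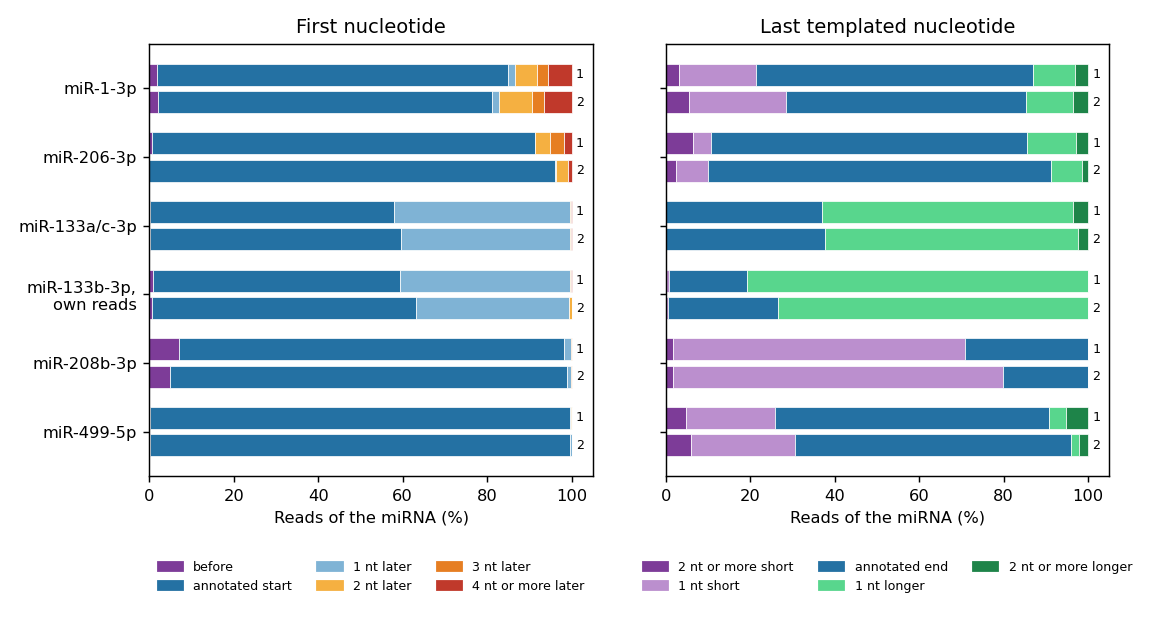
Share of the reads of each miRNA, in percent, by the position of the first base (left) and of the last base that matches the hairpin (right), relative to the annotated ends, in muscle 1 and muscle 2 (numbers beside the bars). miR-133a/c-3p shows 2 starts in both profiles, and miR-208b-3p ends 1 base short in 69.2% and 78.2% of its reads.

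Untemplated 3' tails, here the last 1 or 2 bases that do not match the hairpin, were found in 20.2% and 22.6% of the miR-1-3p reads in muscle 1 and muscle 2. The shares were 20.2% and 18.6% for miR-133a/c-3p, 17.2% and 17.3% for miR-206-3p, 10.6% and 10.6% for miR-499-5p, and 8.74% and 6.43% for miR-208b-3p. Over the 114 miRNAs with at least 1000 reads in muscle 1 the median was 23.1%, with quartiles at 17.2% and 34.1%, and over 115 miRNAs in muscle 2 it was 20.4%, below the share of miR-1-3p there. The reads shared by the 3 miR-133 hairpins, which end before the base that tells them apart, had tails in 40.6% and 35.3%. A base that was added cannot be told apart here from a base that was changed at the end.

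The called base of the tail differed between the miRNAs. A tail base was called only where it differed from the hairpin. An added base equal to the next hairpin base was counted as a longer end. Past the annotated end, that base is U for miR-133a/c-3p and C for miR-133b-3p, so their C and U tails cannot be set against each other. A first tail base of C was most frequent for miR-1-3p (14.3% and 18.2% of its reads), miR-133a/c-3p (14.1% and 12.7%), miR-499-5p (8.72% and 7.9%) and miR-208b-3p (6.85% and 4.6%). In muscle 1 the median share of reads with a tail that begins with C was 7.59% over the same 114 miRNAs. miR-206-3p had mostly A tails, in 13.5% and 10.6% of its reads, and C tails in 2% and 4.62%. The own reads of miR-133b-3p had U tails in 9.83% and 14.4%. In large intestine 1, 24.1% of the miR-133a/c-3p reads had a C tail, and in large intestine 2 6.79%, so that the spread between the profiles of a tissue was larger than the difference between muscle and the other profiles together (13%).

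**Figure D3:**
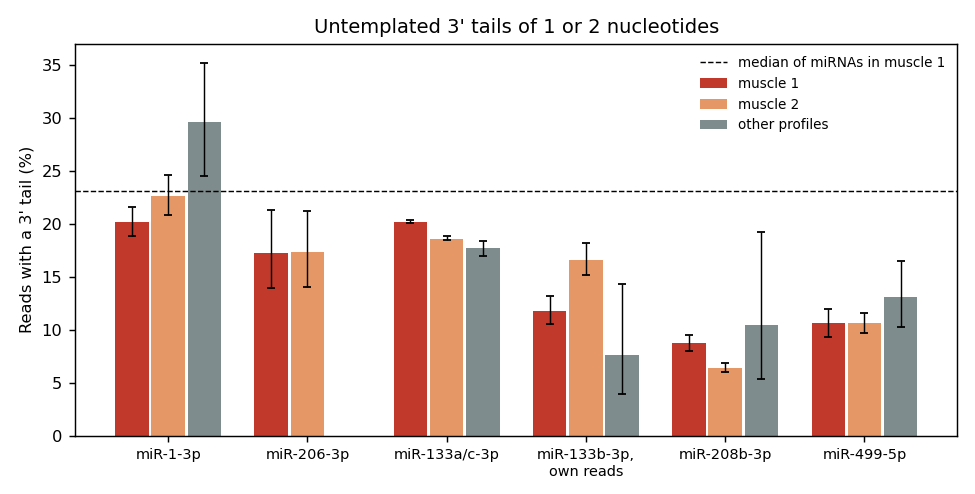
Share of reads with an untemplated 3' tail of 1 or 2 bases, in percent, in muscle 1, muscle 2 and the other 10 profiles together, with 95% Wilson intervals. Only groups with at least 20 reads have a bar, so that miR-206-3p has none outside muscle. The dashed line is the median of 114 miRNAs in muscle 1 (23.1%), and the bars of muscle 1 lie below it for every miRNA shown.

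Changes inside the miRNAs, counted from 1 at the annotated 5' end, were examined where at least 10 reads and 1% of the reads were changed in each muscle profile. The most frequent was at a base of miR-499-5p. There the change C11U was found in 329 of 1937 reads in muscle 1 (17%, 15.4% to 18.7%) and in 864 of 3847 reads in muscle 2 (22.5%, 21.2% to 23.8%). The other possible changes of miR-499-5p had a median of 0.0173% of the reads in muscle, over 63 changes in all. The base lies outside the seed. In spinal cord 18 of 194 reads had the change (9.28%, 5.95% to 14.2%), in occipital lobe 15 of 102 (14.7%), in lung 5 of 26 (19.2%), in liver 1 of 29 and in kidney 2 1 of 24. In kidney 1 it was found in 0 of 30 reads, which allows a share of up to 10%. The intestine profiles had 8 to 19 reads each. The change was in 4 of 8 reads in small intestine 2 (50%, 21.5% to 78.5%) and 1 of 19 in large intestine 2. It was in 0 of 9 in large intestine 1 and 0 of 10 in small intestine 1. The interval of spinal cord lies below those of both muscle profiles. The cause of the change was not tested.

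The other changes that met these limits were smaller. C16U of miR-133a/c-3p was found in 1.85% and 1.94% of the reads in muscle 1 and muscle 2, 0.407% (0.206% to 0.801%) of those in spinal cord and 2.88% (1.69% to 4.87%) of those in lung. The own reads of miR-133b-3p, which hold the same bases there, had C16U in 1.3% and 1.1%. A20C of miR-133a/c-5p was found in 1.63% and 2.07%, and G2U of miR-1-3p in 1.93% and 1.26%. No change reached this level in miR-208b-3p, where the highest of 66 changes was A14C with 0.744% of the reads of both muscle profiles. No change of miR-206-3p or miR-499-3p met these limits, for which their reads were few, but reads with a changed base were among their 6 most abundant and are shown here after their counts were seen, with that base in capitals. The read of miR-206-3p was found 7 and 16 times in muscle 1 and muscle 2, and that of miR-499-3p 1 and 11 times. Another read of miR-499-3p with the same change had 5 reads, in muscle 2.
miR-206-3p, 23 reads: uggaauguaaggaagugCgugg
miR-499-3p, 12 reads: gaacaucaUagcaagucugu

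**Figure D4:**
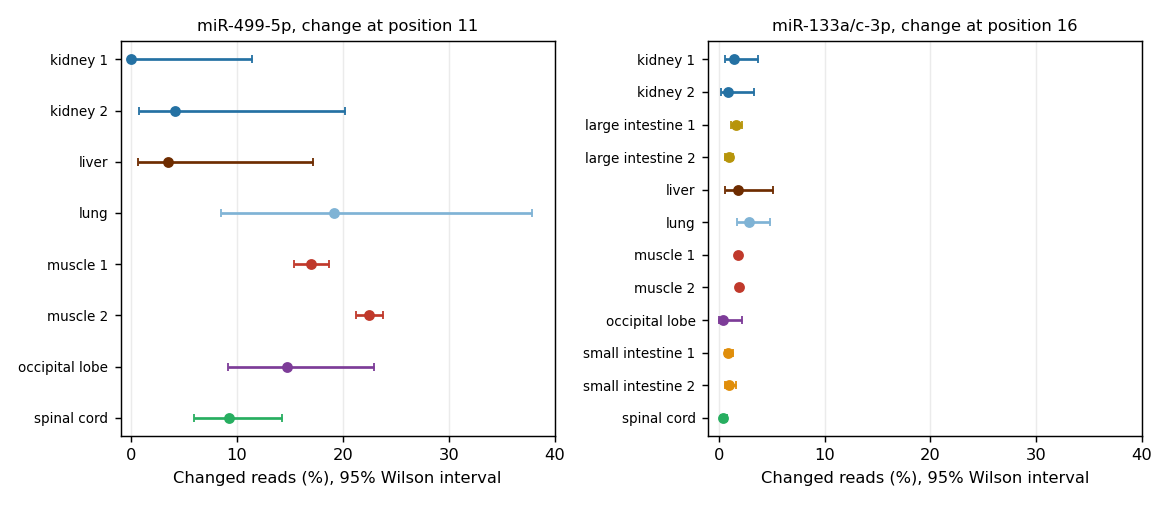
Share of reads with a changed base, in percent with 95% Wilson intervals, at position 11 of miR-499-5p (left) and position 16 of miR-133a/c-3p (right), in the profiles with at least 20 reads, coloured by tissue. The muscle profiles have 17% and 22.5% at the former position, and all profiles stay at or below 2.88% at the latter.

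The counts of miR-1-3p and miR-206-3p have to be read with the adapter of the libraries in view. Their first 6 bases, UGGAAU, are also the first 6 of the 3' adapter of the library, and the authors removed the adapter from the reads and discarded sequences under 18 bases. Few reads of any kind began like the adapter. Between 580 and 2263 reads began with TGGA in 8 of the profiles, where this start ranked among the 5 least frequent of the 256 possible starts of 4 bases. It ranked higher in liver, where miR-122a-5p (UGGAGU) begins alike, in both muscle profiles and in spinal cord. In muscle 1, 3417 reads began with TGGAAT, of which 2697 were miR-1-3p and 360 miR-206-3p, and in muscle 2 these numbers were 2154, 1471 and 409. By contrast, 108322 to 155761 reads of each profile held TGGAAT further along.

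Another miRNA with this beginning is miR-7-5p, with UGGAAG, known as the main product of its hairpins. On mml-mir-7-1 the 12 profiles together held 280 exact reads on the 5p arm and 528 on the 3p arm, and on mml-mir-7-2 these were 202 and 673. On mml-mir-7-3, whose 5p sequence is the same, the order was the opposite, with 193 reads on the 5p arm and 150 on the 3p arm. miR-4650-3p, which also starts with UGGAA, had 0 reads, and the other arm of its hairpin had 1, so that it tells nothing of the adapter. Whether and how many miR-1 and miR-206 reads were lost with the adapter was not tested. Levels of these miRNAs cannot be set against those of the other miRNAs, while the comparison of a miRNA with itself across profiles assumes that any such loss was equal in each. Of the miR-1-3p reads that cover the 6 bases, 2.98% had a mismatch within these 6 bases (mean of the muscle profiles, SD 0.652, n = 2), against 1.25% (SD 0.609) for miR-206-3p.

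**Figure D5:**
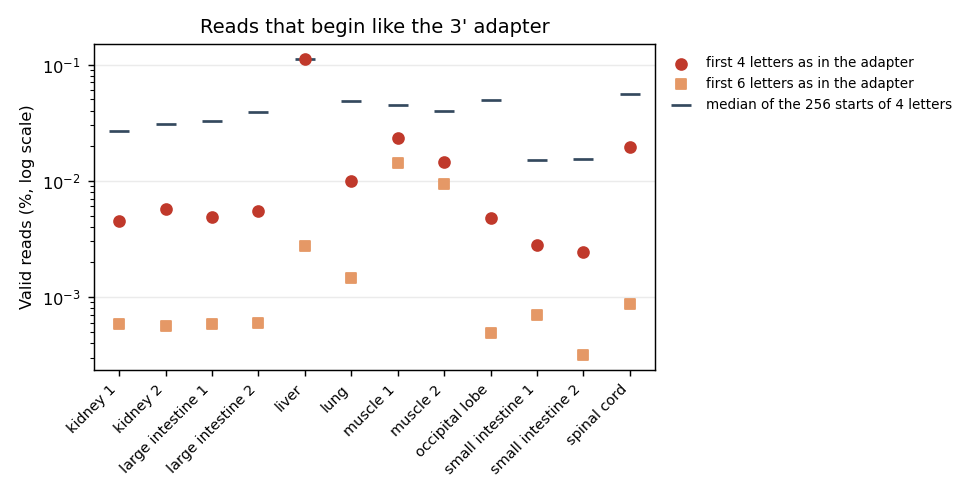
Share of valid reads, in percent on a log axis, that begin with the first 4 (circles) or first 6 (squares) letters of the 3' adapter in each of the 12 profiles, with the median share of the 256 possible starts of 4 letters (bars). Circles lie below the median in every profile but liver, and the squares are highest in the muscle profiles.

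The reads outside muscle were not evenly spread over the tissues, and the intestines, whose wall holds a coat of smooth muscle, were compared with kidney, liver, lung and the neural tissues. Of the 8 miRNAs tested, 6 were higher in the intestines in the same fit, against 74 (20%) of all 370 miRNAs. The 6 are not separate, since miR-133a-3p and miR-133c-3p split the reads of the same sequence by their start. miR-133b-3p shares reads with miR-133c-3p, and miR-133c-5p is the other arm of that hairpin. miR-1-3p had 12.66 and 5.526 RPTM in the large intestine profiles and 28.23 and 8.435 RPTM in the small intestine profiles, all above the highest other profile without muscle, spinal cord with 4.601 RPTM. The lowest, large intestine 2, had 13 reads against 11 in spinal cord and 10 in lung, a gap too small to tell from counting error. The log2 fold change of miR-1-3p was 4.04 ± 0.61 (edgeR adjusted p = 0.00032). miR-133a-3p had 149.7 to 236.4 RPTM in the intestines and at most 122.6 RPTM, in spinal cord, in the others (log2 fold change 3.45 ± 0.39, edgeR adjusted p = 3.7e-05). Only these 2 members separated the 4 intestine profiles from the others in this way, as did 13 (3.51%) of the 370 miRNAs.

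For miR-133c-3p the intestines had 377.9 to 674.6 RPTM, and spinal cord, with 587.7 RPTM, lay among them (log2 fold change 3.58, edgeR adjusted p = 0.00016). Values of miR-133b-3p overlapped in the same way, with 11.87 to 32.1 RPTM in the intestines and 20.08 RPTM in spinal cord (2.97, edgeR adjusted p = 4.4e-05). The scaling matters here, since the TMM factors of edgeR were 0.5968 to 0.7435 in the intestines and 2.365 in spinal cord. With scaling to valid reads instead, the median of all miRNAs moved by -0.94 on the log2 scale, and 35 miRNAs were higher and 163 lower, against 74 and 55 with TMM. The fold changes were then 3.08 for miR-1-3p, 2.46 for miR-133a-3p, 2.57 for miR-133c-3p and 2.04 for miR-133b-3p, all with adjusted p-values under 0.05.

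The call of miR-208b-3p in the intestines (2.16, edgeR adjusted p = 0.042) rests on 1, 10, 4 and 5 reads in large intestine 1 and 2 and small intestine 1 and 2, with 0.4521 to 4.251 RPTM, under the 7.823 RPTM of occipital lobe. It was lost in 11 of 18 alternatives, among them the valid reads (1.33, edgeR adjusted p = 0.18) and leaving out lung (0.86, edgeR adjusted p = 0.3) or large intestine 2 (0.91, edgeR adjusted p = 0.46). miR-133c-5p (4.44, edgeR adjusted p = 0.0092) had 0 to 6.138 RPTM in the intestines. Its call was lost without small intestine 1 (1.14, edgeR adjusted p = 1) and without large intestine 2 (3.85, edgeR adjusted p = 0.056). miR-206-3p and miR-499-5p did not pass the test, with 1.34 (edgeR adjusted p = 1) and -0.71 (edgeR adjusted p = 0.28), and with the valid reads miR-499-5p was lower, with -1.69 (edgeR adjusted p = 0.015).

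The smooth muscle miRNAs miR-143 and miR-145 together had 2347119 to 3570598 RPTM in the intestines and at most 1482178 RPTM, in lung, in the other profiles without muscle. In muscle 1 and muscle 2 they had 947155 and 658798 RPTM. Their part in the levels of the muscle miRNAs was not tested. miR-206-3p, which belongs to skeletal muscle, had 281 and 315 reads in muscle 1 and muscle 2. It had 3 reads in small intestine 1 and 0 in the other 3 intestine profiles. With so few reads in muscle, these counts cannot tell whether skeletal muscle RNA was in the intestine samples, which was not tested.

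The miRNAs whose pattern over the 12 profiles was most like the mean of the members were miR-27b-5p (Pearson's r = 0.867 of log2(RPTM + 1)), mml-miR-486-3p (0.845), mml-miR-378b-3p (0.816), mml-mir-486-3p (0.801) and miR-193b-3p (0.797), among 362 miRNAs. These values are descriptions over 12 profiles that share libraries and depths, and with Spearman's correlation 1 of the 5 stayed among the first 5. miR-27b-5p had 1621 and 1928 RPTM in the muscle profiles and 206.5 to 734.5 RPTM in the others. miR-193b-3p, reported in muscle metabolism and brown fat, had 933.7 and 2807 RPTM against at most 189.2 RPTM, in liver.

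A wider list of miRNAs described in skeletal muscle held 65 mature sequences, of which 38 were tested. Of these, 23 were higher in muscle and 0 lower by edgeR at an adjusted p under 0.05, beside 84 (22.7%) higher and 54 lower of all 370. The median log2 fold change was 1.77 for the list and -0.21 for all 370. These counts are a description, since the list was chosen with earlier results of these data known. It also holds several sequences of the same family, as of miR-378 and miR-486. The largest changes were those of mml-miR-486-3p (6.34, edgeR adjusted p = 1e-05) and miR-95-5p (5.71, edgeR adjusted p = 5.8e-05). miR-486-5p, which is made in muscle and in red blood cells, had 449799 RPTM in muscle 1 and 815651 RPTM in muscle 2 against 9347 to 276764 RPTM elsewhere (log2 fold change 3.22 ± 0.40, edgeR adjusted p = 4.2e-05).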

How the data were processed

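The authors sequenced small RNA libraries (TruSeq, HiSeq 2000), kept reads of good quality, removed the 3' adapter, dropped sequences under 18 nucleotides and deposited the counts of each distinct sequence, not normalized. From these counts, reads were matched to the pre-miRNA sequences of the study's list. No genome was used. The study's filter (mean 5 RPTM or more, standard deviation 1 or more) left 370 of 770 mature sequences with reads (1219 listed). edgeR 4.0.16 (R 4.3.3, limma 3.58.1) was fitted with TMM factors to 12 profiles in 7 groups, with occipital lobe and spinal cord as the neural group, two-sided, with Benjamini-Hochberg adjustment. Muscle was compared with the mean of the other 6 groups, and the mean of the intestines with that of kidney, liver, lung and neural. DESeq2 1.42.0 was an alternative. Read shapes came from Python 3.11.15 with pandas 2.3.3 and scipy 1.17.1, with 95% Wilson intervals, for pools with at least 20 reads. In simulated counts for the muscle comparison, with 74 of 370 miRNAs changed by a factor of 8, 95.95% were recovered with 4 false calls. The simulation gave a miRNA the same expected level in every tissue but muscle, and a spread taken from the fitted trend. The tissues differ in these data, so those rates do not carry over to this fit.

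The depth was 22118095 to 25579064 reads per profile. As profiles are not tied to animals, p-values measure only the spread between these samples. The members and lists were chosen with earlier results of these data known. The miRNAs named are all those annotated on the 8 pre-miRNAs with their opposite arms, mml-mir-208a, miRNAs that begin like the adapter, the 5 with the most similar pattern (Pearson correlation with the mean z-score of each member's most abundant arm), cell type markers, and from a skeletal muscle list miR-486 and the 2 largest changes.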

Additional observations from a re-analysis of the deposited data

How the results depend on the processing

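In the comparison of muscle with the other tissues, all 8 muscle miRNAs kept their direction and their call in each of 20 alternatives, with log2 fold changes from 6.29 to 7.42 for miR-499-5p at the low end and from 10.05 to 12.02 for miR-208b-3p at the high end. The miRNAs lower in muscle numbered 54, and 24 when only reads identical to the mature sequence were counted (262 tested). Leaving out each profile gave 59 to 98 higher and 19 to 69 lower, with 33 lower without muscle 1 and 19 without muscle 2, where the lone muscle profile is assumed to vary like the other groups. In the intestines, 74 miRNAs were higher and 55 lower. These became 35 and 163 with valid reads in place of TMM factors, 46 were higher with identical reads only, and 91 were lower with 8 tissue groups. Leaving out each profile gave 53 to 86 higher and 25 to 73 lower, with 25 without large intestine 1, 32 without small intestine 1 and 35 without small intestine 2, and 4 to 6 of the muscle miRNAs called. The call of miR-133b-3p there was lost with identical reads only (3.46, edgeR adjusted p = 0.063), and miR-206-3p turned to -0.84 (edgeR adjusted p = 1) without small intestine 1, the only intestine profile with its reads, in a range of -0.84 to 1.84 over the profiles left out. The summed level of the muscle miRNAs in muscle was 147753 RPTM, in which reads equally near to miR-133b-3p and miR-133c-3p count for both. It was 38031 RPTM with identical reads only and 201077 RPTM with mismatches and tails. With reads that match no other family member it was 6175 RPTM. These alternatives leave out or add reads by construction.

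The correlations of same-numbered deviations between tissues ran from -0.141 to 0.148. They cannot tell whether the replicate numbers pair the samples by animal, since the deviations also hold the variation of each tissue and library. With the replicate block on the 8 numbered profiles 74 miRNAs were higher and 72 lower in muscle, against 76 and 73 without it, and all 8 muscle miRNAs were called in both. Levels under 3 reads, as those of the rare arms, are limited by depth.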
